A study of Caenorhabditis elegans with 2 samples.

Results

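The genes of this report are the nuclear hormone receptor genes of Caenorhabditis elegans that carry an nhr- name, examined for binding of CEBP-1, a leucine-zipper regulator related to vertebrate C/EBP proteins. They are all 269 protein-coding genes of the WBcel235 annotation whose name begins with nhr- and a digit, of 19973 protein-coding genes in all. The data are peak lists of chromatin immunoprecipitation sequencing from whole young adults aged 62 hours, of strain RW12290, whose own cebp-1 gene on chromosome X was fused by CRISPR to TY1, EGFP and 3xFLAG, and the precipitation used an antibody against GFP according to the description of the samples, while their antibody entry names cebp-1. The group held 2 biological replicates of this 1 strain and stage, without further treatment, grown in synchrony from L1 larvae starved after bleaching, and untagged animals or input were not analysed here. A whole-animal sample pools all tissues, so a weak peak in all cells and a strong one in few cells cannot be told apart.

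Nuclear hormone receptors are transcription factors that typically join a zinc-finger DNA-binding domain to a ligand-binding domain, and many respond to small lipophilic molecules such as sterols, bile acid-like hormones and fatty acids. The family is greatly expanded in nematodes: a few members have clear relatives in insects and vertebrates, while most derive from an ancestor related to the vertebrate receptor HNF4. Worm receptors with known functions act in fat metabolism, diet and xenobiotic responses, moulting, development and longevity.

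The conservative list of the series holds peaks chosen by how well the replicates repeat each other. A gene was called bound when the summit of a peak in this list lay in its promoter window. That window ran from 1000 bp upstream to 200 bp downstream of one of its annotated 5′ ends. The sequence shared by the 4 strongest peaks in nhr promoters is shown first, because the results below return to it. The octamer TTGCGAAA, which resembles the sites bound by C/EBP proteins, lay within 100 bp of the summit at nhr-56, nhr-3, nhr-154, nhr-117 and nhr-183. The stretches below are the parts of the 201 bp window around the summit that lie outside annotated untranslated sequence, read 5′ to 3′ along the strand of the gene on WBcel235, with the octamer or its reverse complement in capitals. For nhr-183 the octamer lies in the annotated leader, and a stretch of 30 bases is given. The stretches are chrV:2218893-2219003 for nhr-56 (plus strand), chrX:14557410-14557610 for nhr-3 (plus), chrV:12100914-12101114 for nhr-154 (plus), chrV:1621595-1621795 for nhr-117 (minus) and chrV:2264611-2264640 for nhr-183 (minus).
nhr-56: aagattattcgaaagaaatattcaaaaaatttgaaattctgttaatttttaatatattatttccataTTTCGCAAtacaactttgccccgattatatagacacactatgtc
nhr-3: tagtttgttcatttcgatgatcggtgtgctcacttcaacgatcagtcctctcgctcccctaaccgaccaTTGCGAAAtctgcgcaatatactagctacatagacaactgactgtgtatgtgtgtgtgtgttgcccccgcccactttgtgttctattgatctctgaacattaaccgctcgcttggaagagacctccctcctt
nhr-154: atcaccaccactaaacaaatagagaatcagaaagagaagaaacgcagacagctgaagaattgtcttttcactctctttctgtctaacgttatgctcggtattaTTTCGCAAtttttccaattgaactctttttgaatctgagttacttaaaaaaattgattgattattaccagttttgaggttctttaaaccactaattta
nhr-117: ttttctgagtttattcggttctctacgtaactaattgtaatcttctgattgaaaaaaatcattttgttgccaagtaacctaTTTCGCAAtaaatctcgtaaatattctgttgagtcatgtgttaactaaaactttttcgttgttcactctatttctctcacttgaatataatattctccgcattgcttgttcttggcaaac
nhr-183: tcactcaagcaTTTCGCAAttgttcactcg

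For contrast, the bound promoter of nhr-68 held no octamer (chrV:11572991-11573184, plus strand), whereas an octamer lay at strong summits beyond the promoter windows of nhr-45 (chrX:4662364-4662564, minus strand) and nhr-243 (chrV:18901612-18901812, minus strand).
nhr-68: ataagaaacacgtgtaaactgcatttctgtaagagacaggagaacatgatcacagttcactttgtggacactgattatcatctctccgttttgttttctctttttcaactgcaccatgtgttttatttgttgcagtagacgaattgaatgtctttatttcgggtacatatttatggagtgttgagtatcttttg
nhr-45: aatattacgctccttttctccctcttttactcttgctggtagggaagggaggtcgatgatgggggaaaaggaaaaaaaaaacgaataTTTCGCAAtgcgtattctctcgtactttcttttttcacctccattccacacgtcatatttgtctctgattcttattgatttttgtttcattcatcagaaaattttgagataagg
nhr-243: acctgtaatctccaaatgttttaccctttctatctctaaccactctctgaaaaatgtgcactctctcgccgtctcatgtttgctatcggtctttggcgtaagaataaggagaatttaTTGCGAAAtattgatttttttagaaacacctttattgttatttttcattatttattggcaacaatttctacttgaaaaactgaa

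CEBP-1 was bound at 16 of the 269 nhr genes (5.95%, 95% Wilson interval 3.69 to 9.44%), next to 1010 of all 19973 protein-coding genes (5.06%). The share of the receptors therefore lay near that of all genes, and the interval of the receptors included it. In the list of replicate 1 alone 12 receptors were bound (4.46%, against 5.37% of all genes), and in that of replicate 2 alone 7 (2.60%, against 2.91%). All 3 lists held a summit in the promoters of the same 6 receptors, which were nhr-3, nhr-47, nhr-56, nhr-117, nhr-131 and nhr-154 (2.23%, against 2.57% of all genes). A peak of any strength in the ranked list of the series was found in the promoters of 147 receptors (54.6%, 48.7 to 60.5%), against 50.6% of all genes. Among genes with such a peak, 16 of 147 receptors were bound (10.9%, 6.81 to 16.9%), and 1010 of 10098 genes overall (10.002%).

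The signal values that follow are the authors' scores per peak, which describe order within a list and carry no error for the series list. For conservative peaks, the values of both replicates come from the overlapping peak in each replicate's own ranked list. For genes without a conservative promoter peak, they are those of the strongest promoter peak in each list. These need not be the same peak. Over the bound receptors, the signal of the strongest promoter peak ran from 81.3 to 351 in the conservative list (median 106, n = 16), from 39.6 to 211 in replicate 1 (median 55.7) and from 35.8 to 140.3 in replicate 2 (median 50.8). The lists were scored separately, so their values are set side by side and not compared in size.

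The highest signal lay at nhr-56 (WBGene00003646), with 351 in the series, 211 in replicate 1 and 140.3 in replicate 2. Its peak ranked 117 of 1546 by signal and spanned V 2218893 to 2219106 (ce11), with the summit 11 bp upstream of a 5′ end. The gene nhr-3 (WBGene00003602) followed with 332, and with 206 and 126 in replicates 1 and 2, at X 14557410 to 14557577. That summit lay 994 bp upstream of nhr-3, close to the edge of the promoter window, and inside an exon of the non-coding gene H01A20.2. These leading receptors stood apart from the lower members in both replicates.

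Next came nhr-154 (WBGene00007547), with 280.5 in the series and 190.01 and 92.1 in replicates 1 and 2, at V 12100971 to 12101084, 279 bp upstream of the gene. It was followed by nhr-117 (WBGene00003707), with 219, and 140.2 and 72.6 in the replicates, at V 1621543 to 1621846, 175 bp upstream of the gene. Each of these 4 receptors carried the octamer and passed the threshold in both replicates. No other peak in an nhr promoter reached 100 in replicate 1 or 60 in replicate 2.

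A middle group held 3 receptors. The gene nhr-8 (WBGene00003607), related to fly DHR96 and known for xenobiotic resistance and cholesterol balance, had a signal of 148, with 93.9 in replicate 1 and 51.1 in replicate 2. Its summit lay 96 bp inside the transcript, in an exon without coding sequence, at IV 7710932 to 7711235. The global irreproducible discovery rate (IDR) estimates how often peaks of a given strength or above would not recur, in the series list between replicates. For nhr-8 the series value was 0.000263. In replicate 2's own ranked list its peak had a global IDR of 0.0193 and was outside the thresholded list, whose limit was 0.01. A list of 1 replicate does not tell how often peaks recur between the 2 replicates. The gene nhr-131 had 143, with 97.3 and 46.97, and its summit lay 62 bp inside the transcript, also in untranslated exon sequence. The gene nhr-183 had 133, with 78.2 and 50.5, and its summit lay 5 bp upstream of the 5′ end. The replicates ordered these 3 differently, with nhr-131 first in replicate 1 and nhr-8 first in replicate 2.

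The other 9 receptors had signals of 107 or less. The gene nhr-142 had 107 (49.99 and 54.5 in replicates 1 and 2), nhr-47 had 105 (59.1 and 56.7) and nhr-68 had 102 (50.4 and 43.6). The gene nhr-68 is known, with nhr-10, for switching on the propionate shunt, a route that breaks down propionate when vitamin B12 is scarce. The gene nhr-255 had 96.3 (41.2 and 55.3) and nhr-1, whose product is known in the nematode Pristionchus pacificus for a role in mouth-form choice, had 91.2 (52.4 and 40.7).

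The lowest were nhr-41 with 90.4 (42.01 and 40.8), nhr-35 with 87.7 (46.1 and 43.8), nhr-232 with 84.4 (52.1 and 35.8) and nhr-135 with 81.3 (39.6 and 40.96). The gene nhr-41 is related to fly DHR78 and the vertebrate testicular receptors. From nhr-142 downwards the order was not the same in the 2 replicates, and their values overlapped. Of the members in this lower group, only nhr-47 was in the thresholded lists of both replicates. Neither replicate's list held nhr-1, nhr-35, nhr-41, nhr-135 or nhr-232, so their calls rest on the series list.

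**Figure D1:**
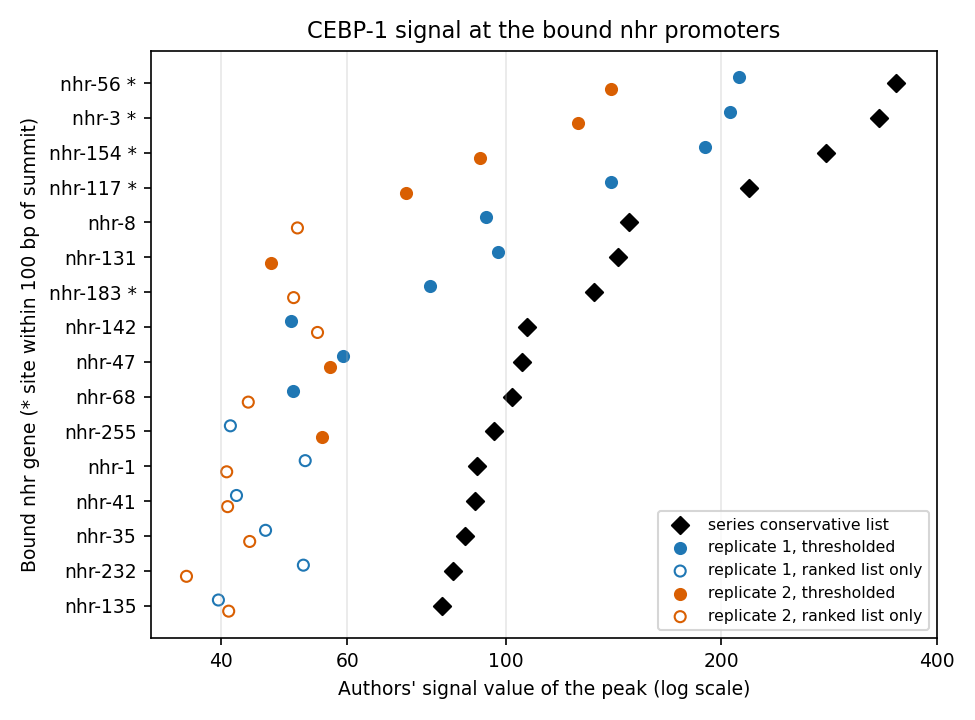
Signal value of the strongest promoter peak at each of the 16 bound nhr genes (rows), on a log axis, in the series' conservative list (diamonds) and in each replicate (circles, filled where the peak is in that replicate's thresholded list). The 4 receptors at the top, all marked by an asterisk for the octamer, lie above all others in each of the 3 lists, and the open circles gather in the lower rows.

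The series list held 18 peaks for these 16 receptors, because nhr-3 and nhr-35 had a pair each. The second peak of nhr-3, at X 14558089 to 14558392, had its summit 263 bp upstream and a signal of 125 (83.3 and 47.9 in replicates 1 and 2). The second peak of nhr-35 overlapped its first and had a signal of 11.6. Both nhr-35 intervals were matched to the same peak in each replicate, so they are no separate observations. In the whole conservative list 187 of 1546 peaks (12.1%) overlapped another one.

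The nhr peaks with the octamer were the stronger ones, with an overlap at nhr-8, nhr-131 and nhr-183. The 5 peaks with it had signals from 133 to 351 (median 280.5), and the 13 without it from 11.6 to 148 (median 96.3). The 11.6 is the second nhr-35 interval, and the next lowest was 81.3 at nhr-135. Both nhr-35 intervals are counted here and in the shares below. All 5 passed in replicate 1 and 4 of them in replicate 2. Of the other 13, 6 passed in replicate 1, 3 in replicate 2 and 2 in both. The same order held over all promoter peaks, with a median of 200.8 for the 274 with the octamer and 107 for the 605 without it, so it is no property of the receptors alone. The share of nhr peaks with the octamer was 27.8% (5 of 18, 95% Wilson interval 12.5 to 50.9%) and that of all promoter peaks 31.2% (274 of 879). In the list of replicate 1 it was 38.5% (5 of 13, against 34.6% of all promoter peaks in that list), and in that of replicate 2 it was 57.1% (4 of 7, against 41.8%).

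The looser core TTGCNNAA, which includes the octamer, lay at 7 of the 18 nhr summits (38.9%) and 42.8% of all promoter summits. The additions were nhr-131 with 1 match and nhr-41 with 2. The C/EBP consensus TTRCGYAA was at 0 of 18, which allows a share of up to 17.6% by the Wilson interval, and at 2.50% of all promoter summits. The hexamer AGGTCA, a core that many vertebrate nuclear receptors bind, was also at 0 of 18 and at 4.32% of all promoter summits. A scrambled control, TTCGRYAA, was at 1 of 18, that of nhr-41, and at 2.73%. All were searched on both strands.

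The bases beside the octamer were also shared, which was noticed after the sequences above had been laid out. At each of the 5 bound promoters the octamer was preceded by A and followed by T, so that all 5 read ATTGCGAAAT on one strand. Of the 4 octamers at summits near or inside receptors but outside promoter windows, 2 had the same flanks, those at nhr-45 and nhr-243. The other two, upstream of nhr-86 and in an intron of nhr-1, had G before the octamer and G or C after it. Of the 300 octamers at all promoter summits, 139 had these flanks (46.3%), and of the 7892 octamers in the nuclear chromosomes 916 did (11.6%). In promoter windows of 1201 bp around the outermost 5′ end, 17 receptors (6.32%) and 10.1% of all genes held the octamer, and 5 receptors (1.86%) and 1.82% of all genes held the decamer.

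Since the flanks were read from the bound promoters themselves, the counts of bound receptors that follow describe the same observation and support nothing further. Of the 5 receptors with the decamer in that window, 4 were bound, namely nhr-56, nhr-117, nhr-154 and nhr-183. The exception was nhr-214, whose strongest ranked promoter peak had a signal of 25.1. Of the 12 receptors with the octamer in other flanks 0 were bound, among them nhr-15, nhr-64, nhr-179 and nhr-286, whose ranked peaks had signals of 20.5, 57.04, 22.5 and 27.2. Over all genes 140 of 363 with the decamer were bound (38.6%) and 199 of 1648 with the octamer in other flanks (12.1%). These counts include the receptors. Bound here meant a summit in the window around the outermost 5′ end, which held for 15 receptors. The nhr-3 decamer lay at -1021.5 bp, where a minus sign means upstream of the 5′ end, and so outside this window.

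Within 100 bp of the summit the octamer was on the strand of the gene at nhr-3 and on the opposite strand at the other 4 receptors. Its centre lay 6.5 bp from the summit at nhr-154, 13.5 bp at nhr-183, 15.5 bp at nhr-117, 27.5 bp at nhr-3 and 29.5 bp at nhr-56. Relative to the 5′ end it was at -40.5 bp at nhr-56, -190.5 bp at nhr-117, -272.5 bp at nhr-154 and 8.5 bp downstream at nhr-183. The distance to the summit was limited to about 100 bp by the search window.

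The 18 summits lay at a median of -219 bp from the 5′ end of the receptor, against -230 bp for all promoter summits and their nearest gene. They ran from 994 bp upstream to 162 bp downstream. Those of nhr-47, nhr-131, nhr-8 and nhr-41 lay downstream, at 16, 62, 96 and 162 bp. That is 4 of 18 (22.2%), beside 8.76% of all promoter summits. The nhr-41 summit fell in an intron and was within the window of an internal 5′ end only, 2044 bp downstream of the outermost one.

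At 13 of the 16 receptors the receptor was the nearest protein-coding gene to its summit. The exceptions were nhr-68, whose summit was 94 bp from H12C20.7 and at -356 bp from nhr-68, nhr-142, with F44E7.9 at 181 bp, and nhr-232, for which rop-1 was nearer. The gene rop-1 encodes the Ro RNA-binding protein. In addition nhr-47 shared its promoter peak with dnj-19, a DnaJ-domain gene, though nhr-47 was nearer at 16 bp. Such summits cannot be given to one gene, and 4 of 18 nhr peaks (22.2%) and 25.4% of all promoter peaks lay in promoters of more than 1 coding gene.

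Non-coding genes lay close to several summits. The nhr-255 summit was 6 bp and the nhr-41 summit 28 bp from the 5′ end of a tRNA gene. A tRNA gene lay within 100 bp at these 2 of 18 nhr summits (11.1%) and at 24 of 879 promoter summits (2.73%). The windows of these same 2 peaks were also the only nhr windows with repeated sequence: 66.3% and 71.7% of their 36-base words occurred once in the nuclear chromosomes, against 100% at the other 16 peaks. How the authors treated reads with several matches is not given in the sources used here, and the part of this in the 2 calls was not tested. The nearest 5′ end was that of a non-coding RNA at nhr-47 and at both nhr-3 peaks.

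**Figure D2:**
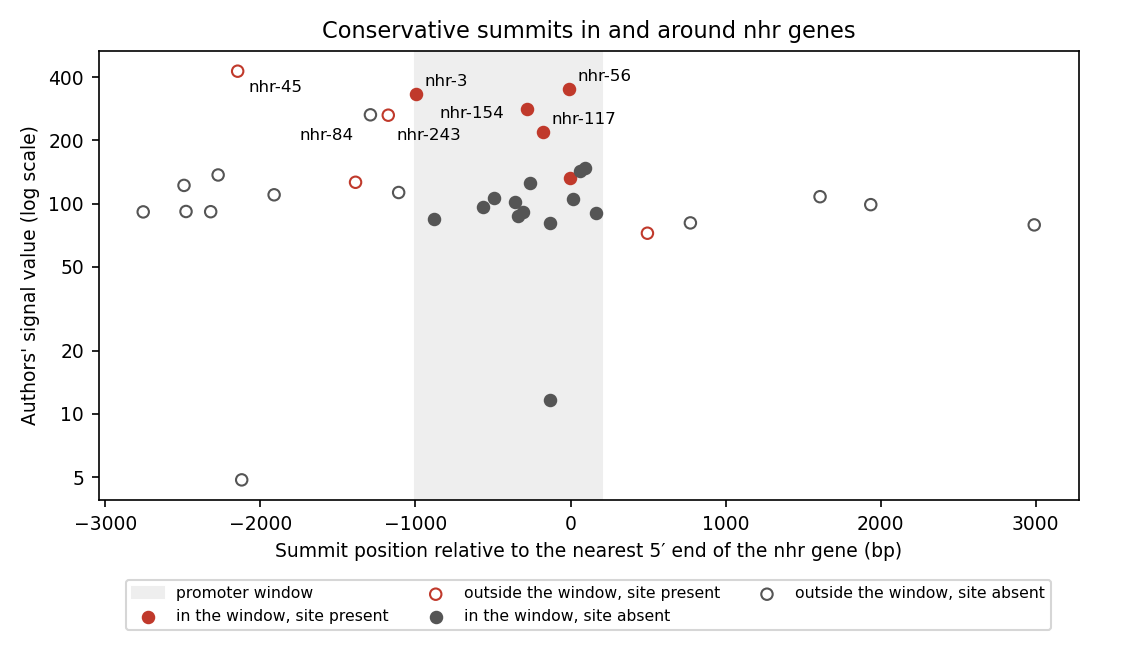
Signal value (log axis) of conservative summits against their position relative to the nearest 5′ end of the nhr gene in bp, with the promoter window shaded. Red points have the octamer within 100 bp of the summit. Filled points are the 18 peaks of bound receptors. Open points lie within 3000 bp upstream of a receptor or in its body, and the highest is that of nhr-45 at 427.

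Summits just beyond the window were compared with those just inside it. The innermost edge case was nhr-3 at 994 bp upstream. The nearest outside were those of nhr-19 at -1108 bp (signal 113), nhr-243 at -1175 bp (263), nhr-84 at -1290 bp (264) and nhr-86 at -1386 bp (126). On the downstream side nhr-41 lay inside at 162 bp, and a summit of nhr-1 outside at 496 bp. Over the 1000 to 3000 bp upstream of unbound receptors there were 12 summits at 11 receptors, the 4 just named upstream included and those already counted for bound nhr-117 and nhr-135 left out. Of the 12, 4 overlapped thresholded peaks of both replicates. No share over all genes is given beside this count, so it does not set the receptors apart.

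The strongest of the 12 summits lay 2146 bp upstream of nhr-45, at X 4662354 to 4662564. Its peak had a signal of 427 (rank 80 by signal), and 245 and 178 in replicates 1 and 2. It exceeded every peak in an nhr promoter, and nhr-45 was the nearest gene of any kind. The product of nhr-45 is known for a detoxification response to mitochondrial dysfunction. The peaks of nhr-84 (139 and 109 in the replicates) and nhr-243 (213 and 53.3) were also in both thresholded lists. So was that of nhr-86 (78.96 and 49.98), whose product is known as a sensor of a pathogen metabolite in the intestine, and an octamer lay at its summit, which was 213 bp from lbp-9, a fatty acid-binding protein gene, and in that gene's promoter.

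Beyond promoters, 5 summits lay in the bodies of 4 receptors. The gene nhr-3 had 2 of them, 773 bp (signal 80.98, in coding sequence) and 1936 bp (98.9, in an intron) downstream of its 5′ end, and so carried 4 summits in all. The others were in introns of nhr-1 (72.3, with an octamer at the summit) and nhr-19 (107.9) and in a non-coding exon stretch of nhr-66 (79.2). None of the 5 matched a thresholded peak of replicate 2, and those of nhr-19 and of nhr-3 at 1936 bp matched one of replicate 1. The count of 5 also stands without a share over all genes.

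The remaining 253 receptors had no conservative summit in the promoter. Of these, 131 had a ranked promoter peak below the threshold, with signals of up to 87.3 (median 34.5). Over all unbound genes with a ranked peak the median was 36.1. The octamer lay at the strongest ranked summit of 1 of these 131 receptors (0.763%) and of 3.26% of all unbound genes with a ranked peak. In 80 of the 269 receptors no ranked list of the series or of either replicate had a promoter summit. No share over all genes is given beside this count, so it does not set the receptors apart. A summit under the threshold does not show that CEBP-1 is absent.

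Some receptors fell just outside the conservative list. In the optimal list, which is the more lenient series list, 18 receptors were bound (6.69%, against 6.31% of all genes), with nhr-49, nhr-112 and nhr-114 gained and nhr-41 lost. The gene nhr-49, a regulator of fat oxidation and desaturation, had a signal of 80.5 at -407 bp, with 39.4 and 35.99 in replicates 1 and 2, and a global IDR of 0.0107. The gene nhr-114, which protects the germline from harmful dietary metabolites, had 70.03 (45.8 and 31.5) and a global IDR of 0.0192. The gene nhr-112 had 87.3, above some bound receptors, but 62.8 in replicate 1 and 23.7 in replicate 2 and a global IDR of 0.285. The gene nhr-50 was in the list of replicate 1 alone (78.3 in the series, 44.8 and 31.6 in the replicates). The weakest call inside, nhr-135, had a global IDR of 0.0066.

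**Figure D3:**
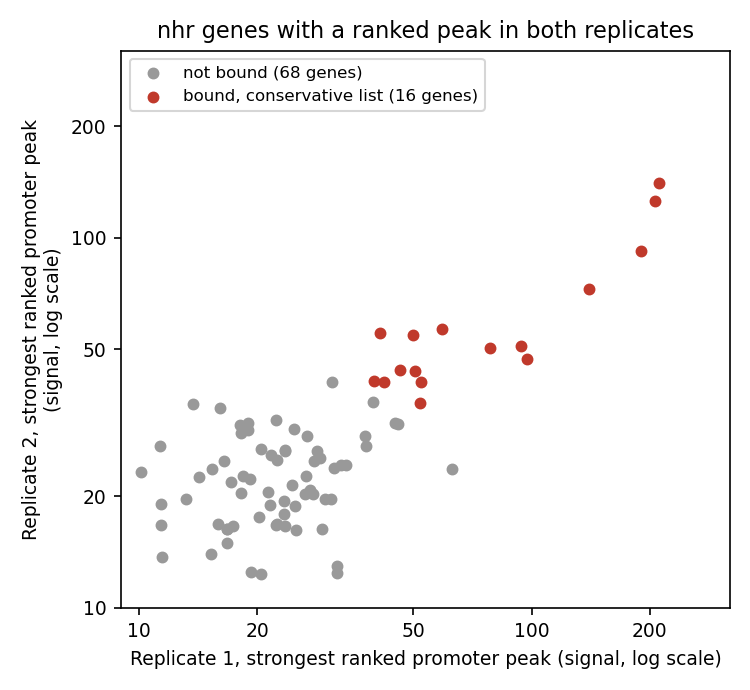
Signal of the strongest ranked promoter peak in replicate 1 (horizontal) and replicate 2 (vertical), both on log axes, for the 84 nhr genes with such a peak in both replicates. The 16 bound receptors (red) lie at 39.6 or more in replicate 1 and 35.8 or more in replicate 2, and the grey point far to the right of the others is nhr-112, at 62.8 and 23.7.

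The receptors with known roles were grouped by function. Against 5.06% of all genes, lists of 4 to 11 genes would hold few bound members or none, so the counts below describe the genes and set no list apart. Of the 11 conserved receptors 2 were bound, nhr-8 and nhr-41, with nhr-8 alone in the lists of replicate 1 and the optimal list and 0 of the 11 in that of replicate 2. The moulting regulators nhr-23 and nhr-25 were not: nhr-23 had no ranked promoter peak in the series list, and nhr-25 had one of 37.5 (global IDR 0.666). For nhr-48 and nhr-239 the values were 51.0 and 50.6. The peaks of nhr-67, known from the anchor cell of the developing vulva, nhr-85, nhr-91 and nhr-111 had 20.9, 30.4, 28.8 and 34.1, and nhr-6 had none.

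Of the 9 receptors of fat, diet and metabolism 1 was bound, nhr-68. Its partner in the propionate shunt, nhr-10, had no ranked promoter peak in the series, and neither had nhr-13 and nhr-80, which work with nhr-49 on fatty acid genes. The values for nhr-62, nhr-64 and nhr-66 were 33.1, 57.04 and 65.3. The list's ranked peaks had a median of 67.7 over 6 genes, and those of all receptors 36.7 over 147. The medians were 53.9 over 3 genes for defence, 37.5 over 9 for the conserved receptors and 34.97 over 4 for development. For receptors in none of the lists the median was 35.1 over 125. With so few genes these medians set no list apart. The 6 genes had from 2 (nhr-68) to 7 (nhr-66) annotated 5′ ends, each with a promoter window, and the part of this in the median was not tested. Of the 5 receptors of defence, xenobiotic response and hypoxia 0 were bound, with 53.9 at nhr-14, 66.1 at nhr-57, 35.2 at nhr-176 and no ranked promoter peak in the series at nhr-45 and nhr-86. Bound nhr-8, known for xenobiotic resistance, was listed with the conserved receptors instead, so this 0 depends on how the lists were drawn. Of the 4 developmental receptors 0 were bound, with 51.9 at nhr-2, 23.6 at nhr-31, 38.2 at nhr-40 and 31.7 at nhr-60. Of the 240 receptors in none of these lists 13 were bound, next to 16 of all 269 (5.95%).

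Genes that work with the receptors were counted in the same way, beside the same 5.06% of all genes, and these lists too are short. None of the 5 receptors with other names was bound, daf-12, fax-1, odr-7, sex-1 and unc-55, and the ranked peaks of daf-12 and sex-1 had 37.9 and 47.1. Of 4 cofactors 2 were bound in all 3 lists, where 2.57% of all genes were. The gene cbp-1, the acetyltransferase coactivator, had a signal of 205 (119.6 and 87.7 in replicates 1 and 2), and din-1, the corepressor of DAF-12, had 163 (109.4 and 78.7). The Mediator gene mdt-15, a coactivator of NHR-49, had 30.6 and was not bound, and gei-8 had no ranked promoter peak.

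Of 9 fat genes controlled by NHR-49, acs-2, an acyl-CoA synthetase, was bound with 75.7 (43.8 and 37.8). The glyoxylate enzyme gene icl-1 was bound by a peak of 12.9, matched by 46.8 in replicate 1 and by no overlapping peak in replicate 2. Neither acs-2 nor icl-1 was bound in the thresholded list of either replicate, and only acs-2 was bound in the optimal list. The desaturase genes fat-6 and fat-7 had 63.04 and 41.3 and were not bound, and fat-5 had no ranked promoter peak. Of 5 propionate shunt genes 0 were bound in the conservative list, and alh-8 was in the list of replicate 1 (49.1 there and 29.8 in replicate 2). Of 4 genes of dafachronic acid synthesis, which makes the DAF-12 ligand, 0 were bound.

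The receptors are unevenly spread over the genome, and so were the bound ones. Chromosome V held 167 of the 269 (62.1%), of which 10 were bound (5.99%, 95% Wilson interval 3.28 to 10.7%), against 4.02% of all genes on V. Chromosome X held 23, of which 4 were bound (17.4%, 6.98 to 37.1%), against 5.13% of all genes there. This share rests on weak calls: in the list of replicate 1 only nhr-3 was bound on X (1 of 23, 4.35%, against 5.20% of all genes on X), and in that of replicate 2 nhr-3 and nhr-255 (2 of 23, 8.70%, against 2.97%). On IV 2 of 33 were bound (6.06%, against 4.36%). Chromosomes I, II and III together had 0 bound of 46, against 5.87% of all genes there. A count of 0 in 46 allows a share of up to 6.52% when taken as 3 counts, and of up to 7.71% by the Wilson interval. With so few bound genes per chromosome these shares carry wide intervals, which cover counting error only, and the differences between chromosomes were not tested.

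**Figure D4:**
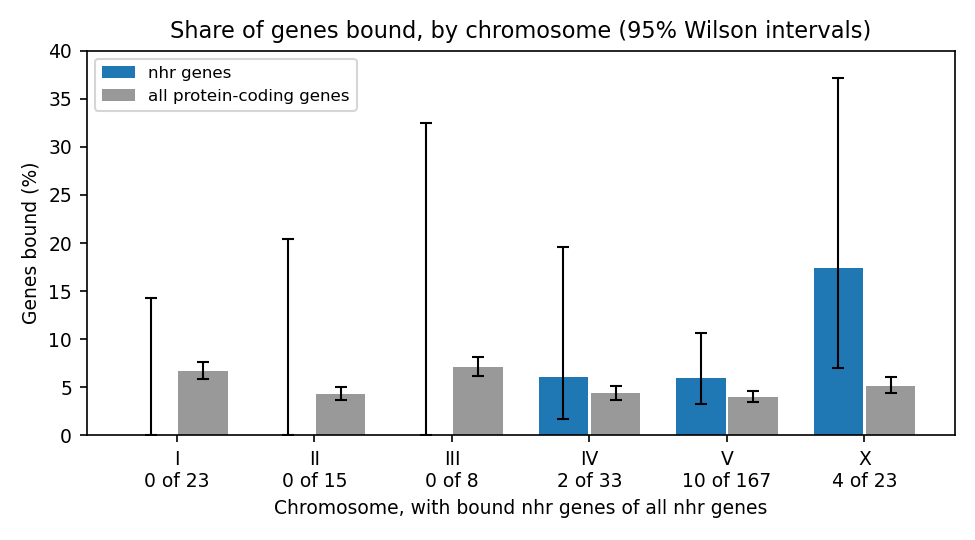
Percent of genes bound by chromosome, for nhr genes (blue) and all protein-coding genes (grey), with 95% Wilson intervals. The blue bar is highest on X, where 4 of 23 receptors were bound in the conservative list shown (1 and 2 of 23 in the lists of replicates 1 and 2), and is at 0 on I, II and III, with intervals that reach past the grey bars on each of these 3 chromosomes.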

How the data were processed

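CEBP-1 binding was measured by chromatin immunoprecipitation sequencing in 1 group of 2 biological replicates, fragmented by sonication to 200 to 800 bp per the labels. Per the notes deposited with the files, peaks came from ChIP and control alignments to ce11, and the authors deposited ranked and thresholded lists per replicate and for the series. The peak caller is not given in the sources used here. The deposited signal value per peak has no stated scaling and was ranked only inside 1 list; values of different lists are shown side by side. Series IDR values were read from the −log10 column of the deposited ranked list matching the conservative one. Replicate IDR values came from each replicate's own ranked list. The summit is the deposited offset from the peak start. Read depth is unknown.

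Genes came from Ensembl release 115 (WBcel235, the same build as ce11), and bases from the RefSeq genome of that build. Overlap meant at least 1 bp. Wilson intervals are at 95%, treat genes or peaks as independent and cover counting error only. Words of 36 bases were counted on both strands. No test was run: 1 group allows none between conditions, and most counts are set beside those of all genes. The members and lists were chosen with earlier results of these data known. Named were all bound members, all members of the nhr role lists, those near the limits of the window and those bound only in another list. Genes of the other pathway lists were counted, and some named after their values were seen. Some further nhr genes were named after their values were seen, such as nhr-214 and nhr-45. Tools were matplotlib 3.10.9, scipy 1.17.1, pandas 2.3.3 and numpy 2.4.6 under Python 3.11.15. On simulated data, only the assignment of peaks to promoters and the search for the octamer were tested.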

Additional observations from a re-analysis of the deposited data

How the results depend on the processing

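The count of 16 bound receptors changed little under the optimal list, other promoter windows, the outermost 5′ end, any overlapping peak base and assignment to the nearest gene, with counts from 13 to 21. With the IDR limit tightened to 0.001 it was 8, losing nhr-1, nhr-35, nhr-41, nhr-68, nhr-135, nhr-142, nhr-232 and nhr-255, and it was from 7 to 12 with either replicate left out (7 without replicate 1 and 12 without replicate 2, each counted in the other replicate's list). The 6 receptors in all 3 lists became 5 to 9 under the other windows and overlap rules. No counts over all genes are given for the IDR limit of 0.001, the other windows or the assignment rules. Changes under these settings therefore cannot be called particular to the receptors. The share of nhr summits with TTGCGAAA was 27.8% with windows of 50 and 150 bp, 25% in the optimal list, and from 38.5 to 57.1% with either replicate left out. The median signal was 249.7 for peaks in all 3 lists, a rule that favours strong peaks because each must pass in both replicates. The median summit distance was -263 bp from the outermost 5′ end, -293.5 bp in the optimal list, and from -182 to -181 bp with either replicate left out. The receptor was nearest to its summit in 9 cases with non-coding genes included, against 13. The cause of the other shifts was not tested. With 16 bound members, shares have wide intervals, and without read counts weaker binding cannot be bounded. No paired analysis was possible because there is only 1 group.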

Other observations

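Many receptors on chromosome V stand in tandem arrays. Another nhr gene began within 10000 bp of 7 of the 10 bound receptors there (70%) and of 72.6% of the 157 unbound ones. On the other chromosomes this held for 0 of 6 bound and 29 of 96 unbound receptors (30.2%). The nearest receptor was bound for 0 of these 7, where 5.95% of all receptors were bound, so few or none would be bound in a set of this size. Next to nhr-56, nhr-128 begins 3060 bp away on the same strand and had no ranked promoter peak in the series or in either replicate. Next to nhr-154, nhr-153 begins 2927 bp away and had a ranked peak of 27.7. The neighbour of nhr-117, nhr-179 at 2660 bp, had 22.5, although its promoter holds TTGCGAAA with other bases at its sides. The neighbour of nhr-68, nhr-101 at 2964 bp, had 18.9, and that of nhr-135, nhr-286 at 2160 bp, had 27.2. For nhr-183 and nhr-131 the neighbours nhr-275 and nhr-106 had no ranked promoter peak in the series.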
